A study of Mus musculus with 6 samples.

Results

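The genes described here encode the machinery of RNA polymerase I. They were chosen by name, with earlier results of these data known. Among them are 5 polymerase subunits (Polr1a, Polr1b, Polr1c, Polr1d and Polr1e). The others are the upstream binding factor Ubtf, the initiation factor Rrn3, and 3 subunits of the promoter complex SL1 (Taf1b, Taf1c and Taf1d). Together these genes are 10 of the 18194 that a probe set of a single gene represents on the array. They were measured by 26 probe sets, groups of short probes that each report 1 transcript. Each of the 6 Affymetrix arrays held RNA from the jejunum, the stretch of gut that takes up most dietary fat, and came from 1 male C57BL/6 mouse. The 3 double knockout mice lacked TIS7 (Ifrd1) and SKMc15 (Ifrd2), a pair of related transcriptional regulators, and are numbered 1, 2 and 3. The 3 wild type mice are numbered 1, 3 and 4. Mice of both genotypes were 7 to 10 weeks old, were caged singly and ate a high-fat diet with 42% of its energy from milk fat and 0.2% from cholesterol. One label gives 3 to 8 weeks of the diet and another puts the tissue at 3 weeks. The labels do not say which parts of the 2 genes were removed, or in which cells.

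RNA polymerase I has a single kind of template, the repeated ribosomal DNA in the nucleolus, which it copies into the precursor of the ribosomal RNAs. SL1, built of the TATA-binding protein and Taf1 subunits, and Ubtf bind the ribosomal DNA promoter, and Rrn3 joins the polymerase to them so that a round of transcription can start. The enzyme is known to be most active in growing and dividing cells, which in the small intestine lie in the crypts, while the absorptive enterocytes of the villi no longer divide.

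Promoter stretches are shown for Polr1e and Polr1b, whose levels differed most between the groups among the tested probe sets, and for Rrn3, the only one of the 10 genes with a CACGTG motif near its start. Each is the 150 bases before the RefSeq start site on the GRCm38.p6 build, read 5′ to 3′ on the strand of the gene. Capitals mark CACGTG, the E-box that Myc and other factors are known to bind, and GGGCGG, the GC box of Sp1.
Polr1e, chr4:45018459-45018608, plus strand: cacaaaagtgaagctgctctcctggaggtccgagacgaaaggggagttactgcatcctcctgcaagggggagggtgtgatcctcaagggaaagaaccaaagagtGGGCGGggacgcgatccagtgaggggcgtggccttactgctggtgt
Polr1b, chr2:129100846-129100995, plus strand: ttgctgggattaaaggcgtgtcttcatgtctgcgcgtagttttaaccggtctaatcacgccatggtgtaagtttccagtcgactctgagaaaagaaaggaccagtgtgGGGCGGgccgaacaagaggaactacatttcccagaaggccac
Rrn3, chr16:13780549-13780698, plus strand: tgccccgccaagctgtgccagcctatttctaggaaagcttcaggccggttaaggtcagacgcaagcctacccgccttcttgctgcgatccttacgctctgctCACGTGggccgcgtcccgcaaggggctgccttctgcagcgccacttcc

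Values are log2 expression levels, on which a difference of 1 is a doubling. A probe set was tested if at least 3 arrays had it above 4, which kept 18013. Median values of the arrays lay between 2.87 and 2.90, and the number of arrays limits the precision. Both targeted transcripts were far lower in the double knockout mice. Ifrd2 had 2.64, 2.74 and 2.59 in double knockout mice, against 8.20, 8.32 and 8.61 in wild type mice, a level at least 20.8-fold lower (limma adjusted p = 2.37e-05). Ifrd1 had 6.27, 4.80 and 4.85 in double knockout mice, against 10.00, 9.84 and 9.91 in wild type mice (limma adjusted p = 0.00894). Enterocyte markers were bright on all 6 arrays, with Apob between 13.00 and 13.45 and Lct, which encodes lactase, between 13.00 and 13.36. The 3′ minus 5′ signal of the Actb and Gapdh controls, a measure of RNA integrity, was 0.60, 0.41 and 0.61 in double knockout mice, against 0.35, 0.49 and 0.36 in wild type mice (two-sided exact permutation test, p = 0.2, where 0.1 is the smallest p these groups allow). Adding this value to the fit left the Ifrd1 call short of the threshold (log2 fold change -4.93, limma adjusted p = 0.0777).

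Most RNA polymerase I transcripts lay slightly higher in double knockout jejunum, and few of these differences passed the test after adjustment. Of the 17 probe sets tested, which cover 8 of the 10 genes, 1 rose and 0 fell at an adjusted p of at most 0.05 (limma with Benjamini-Hochberg adjustment over all 18013), a share of 5.88% against 4.47% of all probe sets tested in either direction (2.54% upward, 1.93% downward). This share is near the background. The probe set that rose belongs to Polr1e and entered the test only through its double knockout values, since all 3 wild type values lay under 4; without the filter its adjusted p was 0.0678 (limma), so the count and share are a description only. At an unadjusted p of at most 0.05, 7 of the 17 passed, all higher, against 27.1% of all probe sets in either direction. Fold changes were positive for 14 of the 17 and for 53.6% of all probe sets tested, and their median was 0.19 against 0.03. On 11 of the 17 every double knockout mouse lay above every wild type mouse, against 19.5% of all probe sets tested, and on 0 did it lie below, against 14.8%. Over all 26 probe sets, dim ones included, the groups were apart upward on 13, against 11.4% of the 45037 probe sets without the filter, and downward on 0, against 10.4%. The same Polr1e probe set is among the 7, the 14 and the 11 of the 17 and enters the median of 0.19. These values too are therefore a description only. Probe sets of 1 gene share its transcripts, so they are not independent of each other. Whole jejunum was measured, so a change in the share of a cell type and a change in RNA per cell cannot be told apart.

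**Figure D1:**
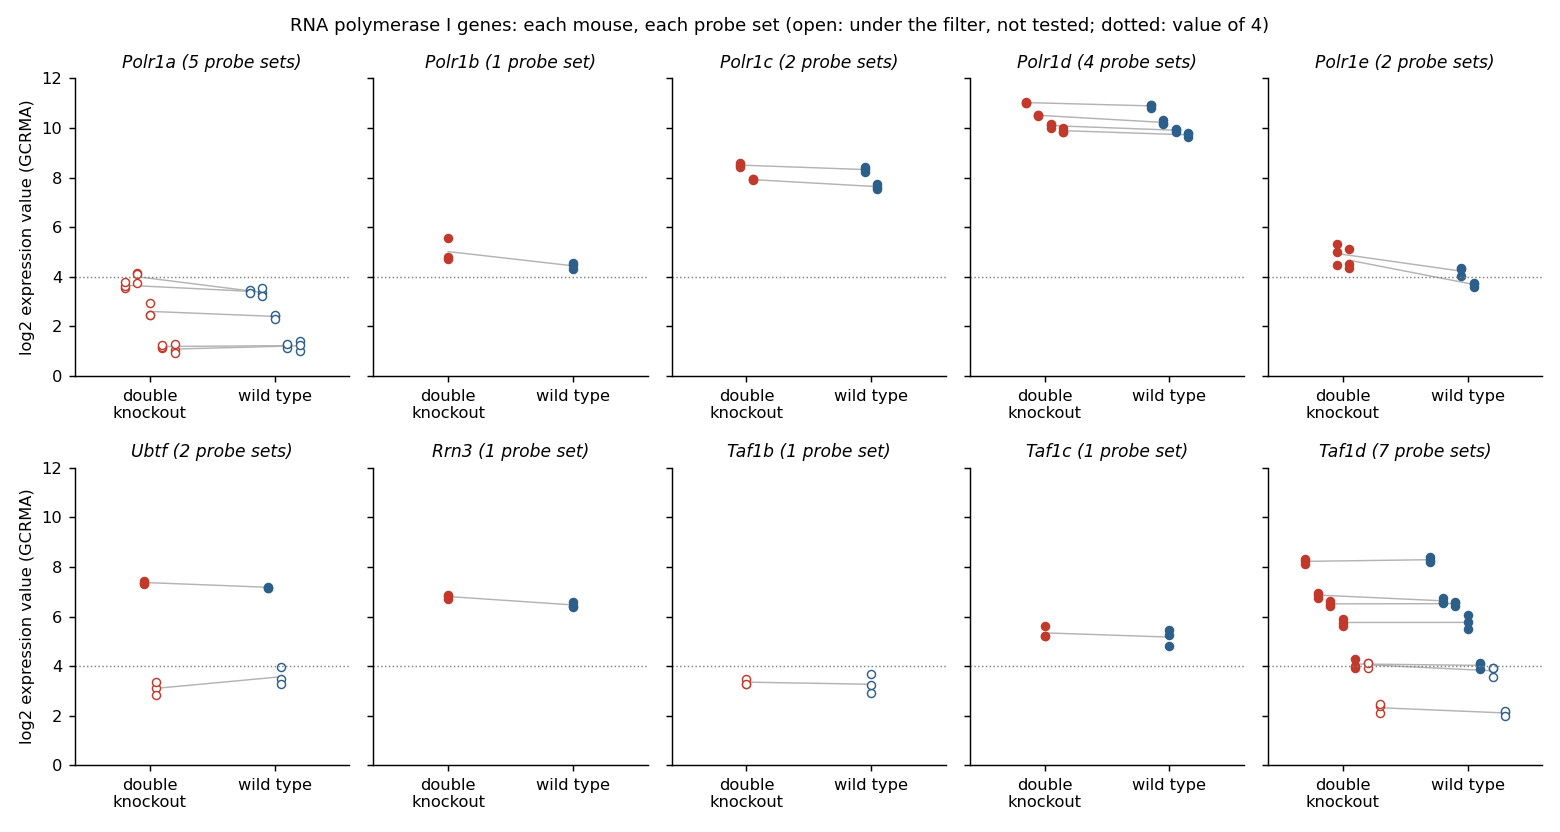
Log2 expression value (vertical axis) of each RNA polymerase I probe set in each of 3 double knockout (red, left) and 3 wild type (blue, right) mice, 1 panel per gene; grey lines join group means, open points are probe sets that were not tested, and the dotted line is a value of 4. All 5 Polr1a probe sets lie near or under 4, and every Polr1d point of double knockout mice lies above those of wild type mice on the same probe set.

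Polr1e encodes a subunit of the Polr1e and Cd3eap pair, a module of the enzyme that takes part in initiation and elongation. On probe set 1419058_at it had 4.35, 4.53 and 5.14 in double knockout mice, against 3.72, 3.76 and 3.59 in wild type mice. The groups did not overlap, and their nearest values lay 0.59 apart. Polr1e rose on this probe set by 0.98 ± 0.20 (log2 fold change ± SE, limma adjusted p = 0.0499). All wild type values lay under 4, so the probe set was tested only through its double knockout values, and with the wild type raised to 4 the rise is at least 1.59-fold. That version of the fit no longer passed (log2 fold change 0.67, limma adjusted p = 0.0937). The call was also lost when any 1 mouse was left out, with changes of 0.74 to 1.14 and limma adjusted p-values of 0.0621 to 0.156, and with the 3′ to 5′ value in the fit (0.83 ± 0.28, limma adjusted p = 0.273).

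The suffix of the other Polr1e probe set, 1435057_x_at, marks a set in which some probes can match other transcripts. Here Polr1e had 5.02, 4.48 and 5.33 in double knockout mice, against 4.30, 4.02 and 4.36 in wild type mice. Every double knockout value was again the higher, but double knockout mouse 2 lay only 0.12 above the nearest wild type mouse. The change of 0.71 ± 0.22 did not pass (limma adjusted p = 0.106); without double knockout mouse 2 it was 0.94 and passed narrowly (limma adjusted p = 0.0496). Both Polr1e probe sets had their highest value in double knockout mouse 3, whereas mouse 2 was the lowest of its group on 1435057_x_at alone.

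Polr1b and Polr1a encode the 2 large subunits that form the catalytic centre. Polr1b had 4.79, 4.72 and 5.55 in double knockout mice, against 4.30, 4.58 and 4.46 in wild type mice. Double knockout mouse 3 stood well above the other five and the SD of the double knockout group was 0.46, against 0.14 in wild type. The log2 fold change of 0.57 ± 0.23 did not pass (limma adjusted p = 0.166), and without that mouse it was 0.31. With the 3′ to 5′ value in the fit it was 0.28 ± 0.27 (limma adjusted p = 0.646).

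Polr1a, the largest subunit, was not measured well enough to test. On 1417775_at, its brightest of 5 probe sets, it had 3.75, 4.14 and 4.12 in double knockout mice, against 3.33, 3.57 and 3.22 in wild type mice. On 1460215_at it had 3.55, 3.65 and 3.79 in double knockout mice, against 3.44, 3.45 and 3.36 in wild type mice. The groups were apart upward on both, but the 2 probe sets were designed on the same sequence record and repeat one measurement, and these levels are at the bottom of the scale. The remaining 3 probe sets stayed between 0.92 and 2.93 with overlapping groups. In a fit without the filter 1417775_at had a log2 fold change of 0.63 ± 0.14 (limma adjusted p = 0.0897). With the wild type values raised to 4 the difference was at least 1.003-fold.

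Polr1c and Polr1d form the assembly platform that RNA polymerases I and III have in common, and mutations of both genes are known from Treacher Collins syndrome in humans. On 1417041_at, Polr1c had 7.93, 7.90 and 7.94 in double knockout mice, against 7.55, 7.72 and 7.63 in wild type mice. The 3 double knockout mice were nearly equal and all above wild type. The change was 0.28 ± 0.08, equal to 1.22-fold, and did not pass (limma adjusted p = 0.0941). On 1449648_s_at it had 8.57, 8.44 and 8.51 in double knockout mice, against 8.24, 8.33 and 8.41 in wild type mice, and the groups were 0.025 apart (0.18 ± 0.09, limma adjusted p = 0.240).

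Polr1d was measured by 4 probe sets, and double knockout values were the higher on each. On 1448287_at it had 10.50, 10.53 and 10.51 in double knockout mice, against 10.16, 10.31 and 10.21 in wild type mice. The change of 0.29 ± 0.08, again 1.22-fold, did not pass (limma adjusted p = 0.0881), although the groups were 0.19 apart; with an intensity trend and a robust prior in the same test it did (limma adjusted p = 0.0356). Changes on the other 3 Polr1d probe sets were 0.13, 0.17 and 0.19, with limma adjusted p-values of 0.214 to 0.329. On 1447320_x_at Polr1d had 11.05, 11.02 and 11.02 in double knockout mice, against 10.94, 10.93 and 10.81 in wild type mice. Probe sets 1447320_x_at and 1459657_s_at were designed on the same sequence record, so they repeat one measurement. All 9 tested probe sets of polymerase subunits had positive fold changes, from 0.13 to 0.98. The highest is that of Polr1e on 1419058_at, which was tested only through its double knockout values.

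Rrn3, also called TIF-IA, is the factor through which growth signals are known to switch RNA polymerase I on and off. It had 6.83, 6.88 and 6.72 in double knockout mice, against 6.60, 6.42 and 6.39 in wild type mice. Its groups were apart by 0.12, and the change of 0.34 ± 0.10, equal to 1.26-fold, did not pass (limma adjusted p = 0.0897). Unlike Polr1b and Polr1e, Rrn3 had its highest double knockout value in mouse 2 and its lowest in mouse 3. With the 3′ to 5′ value in the fit it was 0.42 ± 0.12 (limma adjusted p = 0.235).

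Ubtf keeps the ribosomal DNA open for transcription. On 1453097_a_at it had 7.45, 7.30 and 7.37 in double knockout mice, against 7.17, 7.17 and 7.20 in wild type mice. Wild type mice were nearly equal (SD 0.020) and lay below every double knockout mouse, yet the change of 0.20 ± 0.08 did not pass (limma adjusted p = 0.180). The other Ubtf probe set, 1460304_a_at, was under 4 on all arrays and pointed the other way, with 3.14, 3.35 and 2.83 in double knockout mice, against 3.95, 3.49 and 3.28 in wild type mice; these values overlap, and the fit without the filter gave -0.47 ± 0.20 (limma adjusted p = 0.302).

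For the SL1 subunits Taf1b, Taf1c and Taf1d, 0 of 9 probe sets separated the genotypes. Without the filter, 11.4% of all 45037 probe sets were apart upward and 10.4% downward. Of the 9 SL1 probe sets, 7 belong to Taf1d, so the count is a description only. Taf1c had 5.21, 5.22 and 5.60 in double knockout mice, against 5.45, 5.24 and 4.83 in wild type mice. Its groups overlapped widely (0.17 ± 0.19, 95% interval -0.28 to 0.62, limma adjusted p = 0.595). Taf1b, with 3.29, 3.50 and 3.28 in double knockout mice and 3.67, 2.90 and 3.24 in wild type mice, was under 4 on every array and was not tested.

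Taf1d, whose introns are known to carry small nucleolar RNAs in humans, was measured by 7 probe sets that spanned 2.01 to 8.40. On 1457292_at it had 8.24, 8.33 and 8.11 in double knockout mice, against 8.40, 8.20 and 8.28 in wild type mice. Here wild type was marginally the higher (-0.07 ± 0.10, 95% interval -0.30 to 0.17, limma adjusted p = 0.686). The largest change of the 5 tested was on 1430271_x_at, with 6.96, 6.76 and 6.89 in double knockout mice, against 6.57, 6.58 and 6.76 in wild type mice (0.23 ± 0.10, limma adjusted p = 0.189). Double knockout mouse 2 and wild type mouse 4 were equal there to 2 decimals, where the groups met. Changes on the other 3 tested probe sets lay between -0.01 and 0.06, with limma adjusted p-values of 0.804 to 0.993, and 1436558_at and 1442289_at were too dim to test. The median change was 0.03 over the 6 SL1 probe sets tested and 0.28 over the 9 of polymerase subunits. These 9 include Polr1e on 1419058_at, tested only through its double knockout values, so the medians are a description only. Whether they differ was not tested. The intervals of Taf1c and of Taf1d on 1430147_a_at, 1430271_x_at and 1452987_at include the change of 0.28 seen for Polr1c. Those of Taf1d on 1457292_at and 1452635_x_at do not.

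**Figure D2:**
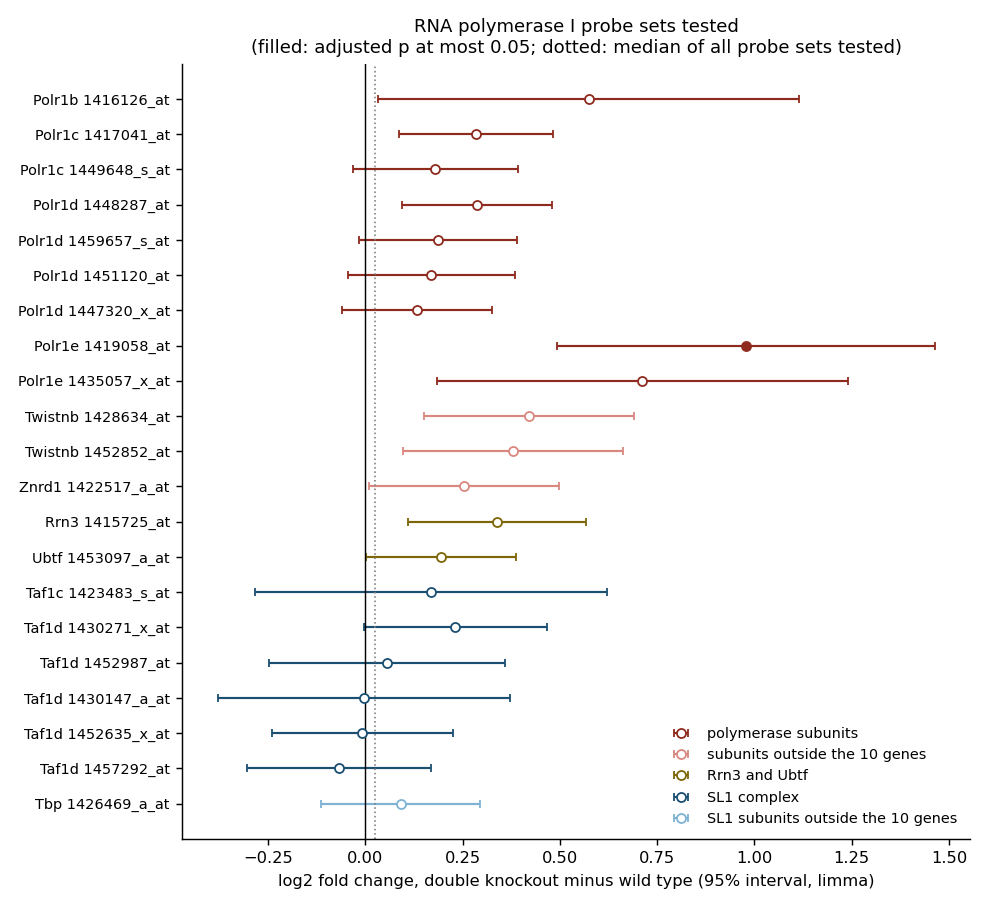
Log2 fold change, double knockout minus wild type (horizontal axis), of each tested probe set of the 10 genes and, in paler colours, of the related subunits Twistnb, Znrd1 and Tbp, with its 95% interval from limma (n = 3 mice per group); only the filled point, Polr1e on 1419058_at, has an adjusted p of at most 0.05. Subunits lie right of 0 from 0.13 to 0.98, and the dotted line at 0.03 is the median of all 18013 probe sets.

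Genes were also compared through 1 probe set each, the brightest. On that count 0 of 8 tested genes passed, against 4.78% of 9672 genes in either direction (3.17% higher, 1.6% lower). Of the 8, 7 had positive changes and 6 had groups apart upward, against 22.5% of genes. In lists described below, groups were apart upward for 6 of 10 other RNA polymerase I genes and 5 of 8 RNA polymerase II subunits. The same held for 4 of 19 RNA polymerase III genes, 26 of 27 of pre-rRNA processing and 17 of 20 of dividing cells. The median change of the 8 RNA polymerase I genes was 0.19, against 0.05 over all genes. Averaged over these 8 genes after each was centred on its own mean, the level was 0.13, 0.03 and 0.26 in double knockout mice, against -0.09, -0.15 and -0.17 in wild type mice. On this average double knockout mouse 2 was the nearest to wild type and mouse 3 the farthest. In mouse 3 Polr1b was 0.82, Polr1e 0.74 and Taf1c 0.35 above their means. Of 9664 other genes, those whose centred values lay nearest to this average were Smarce1, a chromatin remodelling subunit, Cadps2, a vesicle exocytosis factor, Tmem11, a mitochondrial membrane protein, Hmgn1, a nucleosome-binding protein, and Rrp9, a nucleolar protein of pre-rRNA processing. Their mean distance from it over the 6 arrays was 0.025 to 0.027. Taken as medians of the 8 genes, the centred levels in double knockout mice 1, 2 and 3 were 0.12, 0.02 and 0.09. By that measure mouse 1 was the farthest from wild type.

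Further genes of RNA polymerase I were taken from a list of 12 other subunits, factors and regulators, of which 10 could be tested. Of these, 1 rose, 0 fell and 9 did not pass, with a median change of 0.23 and all 10 positive on the probe set of highest mean value. Mybbp1a, a nucleolar protein that binds the enzyme and Myb, was the gene that rose. On 1423431_a_at it had 9.61, 9.35 and 9.57 in double knockout mice, against 8.93, 9.06 and 8.91 in wild type mice (0.54 ± 0.10, limma adjusted p = 0.0421). Its other probe set, 1423430_at, rose too, with 5.72, 5.64 and 6.04 in double knockout mice, against 5.01, 5.06 and 5.05 in wild type mice (0.76 ± 0.12, limma adjusted p = 0.0282). The call on 1423431_a_at was lost without double knockout mouse 1 or 3, without any 1 wild type mouse, without the filter and with the 3′ to 5′ value in the fit.

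Among the subunits of that list, Twistnb, now called Polr1f, had 8.57, 8.53 and 8.66 in double knockout mice, against 8.17, 8.03 and 8.42 in wild type mice on 1452852_at. Its groups were apart on both tested probe sets, 1452852_at and 1428634_at (0.38 ± 0.12 and 0.42 ± 0.11, limma adjusted p = 0.106 and 0.0807). Znrd1, now Polr1h, was at 0.25 ± 0.10 (limma adjusted p = 0.173). Cd3eap, now Polr1g and the partner of Polr1e, was too dim to test, with 4.14, 3.61 and 4.32 in double knockout mice, against 3.60, 3.54 and 3.47 in wild type mice. For SL1, Taf1a was likewise too dim to test, with 3.93, 3.91 and 4.09 in double knockout mice, against 3.63, 3.81 and 3.87 in wild type mice, groups that did not overlap. The TATA-binding protein Tbp stood at 0.09 ± 0.09 (limma adjusted p = 0.526). Among the regulators, Cavin1, which releases finished transcripts, was at 0.64 ± 0.20, the histone demethylase Kdm2b at 0.29 ± 0.09, the deacetylase Sirt7 at 0.20 ± 0.08, Baz2a, which silences ribosomal DNA, at 0.08 ± 0.09, the demethylase Phf8 at 0.05 ± 0.15 and the termination factor Ttf1 at 0.02 ± 0.11; limma adjusted p-values of these 6 ran from 0.107 to 0.941. The other 2 tested Baz2a probe sets had lower double knockout means, at -0.20 ± 0.18 on 1427209_at and -0.10 ± 0.08 on 1427210_at, the groups being apart downward on the second (limma adjusted p = 0.506 and 0.488). Cavin1 is also a main coat protein of caveolae in vascular, muscle and fat cells.

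The nearest relatives of the enzyme were compared in the same way, with the 3.17% of all genes that rose as background. Of 3 measured subunits that all nuclear RNA polymerases contain, 0 passed; Polr2h was at 0.40 ± 0.11, Polr2e at 0.18 ± 0.19 and Polr2f at 0.17 ± 0.08 (limma adjusted p = 0.0879, 0.573 and 0.220). Among 8 other subunits of RNA polymerase II 0 passed, 7 were positive and the median was 0.24, with Polr2c at 0.32 ± 0.08 and Polr2m at 0.34 ± 0.09 nearest to the threshold (limma adjusted p = 0.0639 and 0.0792). For RNA polymerase III, which makes transfer RNAs and the smallest ribosomal RNA, 0 of 19 genes passed, 12 were positive and the median was 0.06; Polr3e was at 0.36 ± 0.13 and Gtf3c4 at 0.44 ± 0.16 (limma adjusted p = 0.147 and 0.154).

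The product of the enzyme is cut and modified by a further group of nucleolar proteins. Of 27 genes of pre-rRNA processing, 15 rose, 0 fell and 12 did not pass, with a median of 0.59 and all 27 positive. Nop56, a core protein of small nucleolar ribonucleoproteins, had 9.33, 9.16 and 9.32 in double knockout mice, against 8.35, 8.59 and 8.35 in wild type mice (0.84 ± 0.11, limma adjusted p = 0.0189). Heatr1, which is also required for transcription by RNA polymerase I, rose by 1.12 ± 0.15, Wdr12 of large-subunit assembly by 0.87 ± 0.14 and Nhp2 by 0.70 ± 0.09 (limma adjusted p = 0.0231, 0.0308 and 0.0209). The number called depended on the set of mice. It was 1 without double knockout mouse 1, 12 without mouse 2 and 0 without mouse 3, and it was 2 without wild type mouse 3 and 0 without wild type mouse 1 or 4. With the 3′ to 5′ value in the fit it was 0. In the Myc network, whose factor Myc is known to drive ribosomal RNA synthesis, 0 of 10 genes passed, 4 were positive and the median was -0.21. Myc itself was at 0.12, Mycn at -0.60 and Max at -0.31 (limma adjusted p = 0.757, 0.142 and 0.0865). The Myc antagonists Mxd4 and Mxd1 stood at -0.68 ± 0.15 and -0.43 ± 0.10, below wild type on every array (limma adjusted p = 0.0578 and 0.0677). Of the rest, Mnt was at -0.49 and Mxi1 at 0.14 (limma adjusted p = 0.153 and 0.584).

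**Figure D3:**
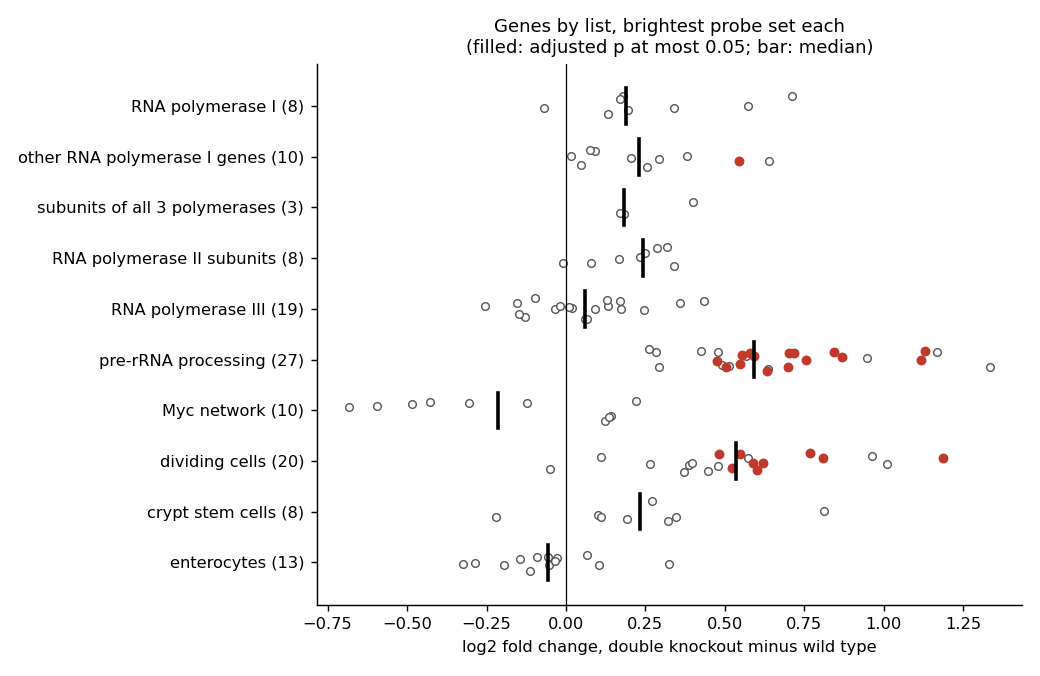
Log2 fold change, double knockout minus wild type, of each tested gene (points, brightest probe set) in 10 lists, with the number of genes in brackets, the median as a bar and genes with an adjusted p of at most 0.05 filled. RNA polymerase I genes centre on 0.19, pre-rRNA processing genes on 0.59 and genes of dividing cells on 0.54.

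Markers of dividing cells were measured beside these genes. Of 20 tested, 9 rose, 0 fell and 11 did not pass, with a median of 0.54, and their summed linear signal was 12299 to 13442 in double knockout mice, against 9318 to 9913 in wild type mice; Tyms alone was under 4 on every array, and Pcna, the sliding clamp of replication, was at -0.05. The mitotic kinases Plk1 and Cdk1 rose by 1.18 ± 0.17 and 0.60 ± 0.10, and Mcm5, part of the helicase that opens DNA for replication, by 0.52 ± 0.08 (adjusted p from limma = 0.0256, 0.0295 and 0.0277). The number called was 0 without double knockout mouse 1 or 3, without wild type mouse 1, 3 or 4 and with the 3′ to 5′ value in the fit, and 6 without double knockout mouse 2. The RNA polymerase I genes summed to 3129 to 3213 in double knockout mice, against 2765 to 2948 in wild type mice. Most of this sum is Polr1d on 1447320_x_at, by far the brightest, whose change was 0.13 (limma adjusted p = 0.329). The part of dividing cells in the RNA polymerase I values was not tested.

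Crypt stem cell markers had 0 of 8 genes past the threshold, a median of 0.23 and overlapping sums of 5994 to 6476 in double knockout mice, against 4983 to 6392 in wild type mice; Msi1 was under 4 on every array. Ascl2, a stem cell factor, had the highest change, 0.81 ± 0.19 (limma adjusted p = 0.0646). Lgr5 was at 0.10, Olfm4 at 0.19, Sox9 at 0.11 and Prom1, the only negative one, at -0.22 (limma adjusted p = 0.892, 0.424, 0.769 and 0.428). For enterocyte markers 0 of 13 passed and the median was -0.06, while their sum was 126032 to 130701 in double knockout mice, against 136660 to 138626 in wild type mice. Changes were negative for 10, with Apob at -0.33 ± 0.08 and Lct at -0.29 ± 0.08 (limma adjusted p = 0.0699 and 0.0847). They were positive for 3, namely Cdx1 at 0.32, Cdx2 at 0.10 and Anpep at 0.07 (limma adjusted p = 0.164, 0.666 and 0.856). The dividing cell list aside, there were 15 lists of cell type markers, of which 13 had a gene bright enough to test. In these, 0 of 76 genes rose and 1 fell, against 3.17% and 1.6% of all genes. The gene that fell was the tuft cell gene Rgs13 (-1.003 ± 0.17, limma adjusted p = 0.0321). Of these lists, all 7 fibroblast markers had positive changes (median 0.48), and their sums overlapped at 4972 to 6589 in double knockout mice, against 3187 to 5157 in wild type mice. Endothelial markers were positive for 5 of 5 with a median of 0.26, and macrophage and dendritic cell markers for 5 of 6 with a median of 0.33, again with overlapping sums. The acinar gene Cela1 was at 0.62 ± 0.13 with its groups apart (limma adjusted p = 0.0506), while Cpa1 and Ctrb1 were under 4 on every array, as were the red blood cell markers. The part of these cell types in the RNA polymerase I values was not tested.

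**Figure D4:**
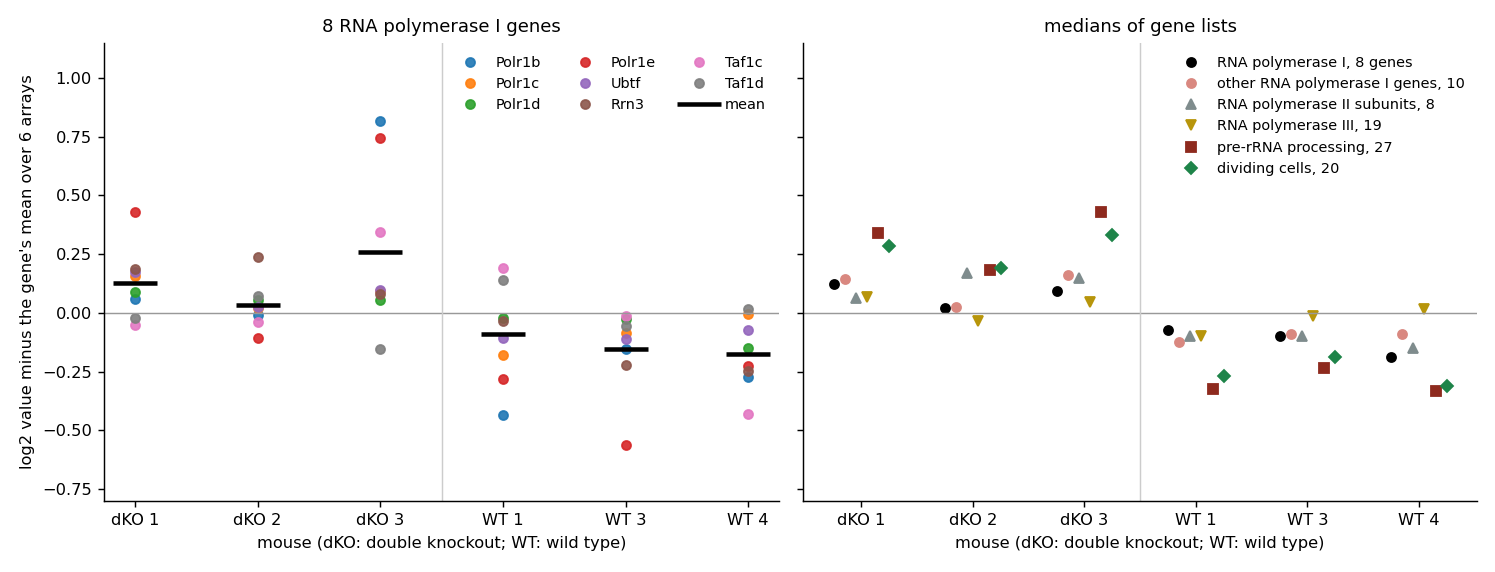
Log2 values minus each gene's mean over the 6 arrays, by mouse, for the 8 tested RNA polymerase I genes (left, bars are means) and as medians of gene lists (right). The bars stand at 0.13, 0.03 and 0.26 in double knockout mice and at -0.09, -0.15 and -0.17 in wild type mice, and pre-rRNA processing and dividing cell genes spread wider in the same directions.

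The promoter windows of the 10 genes, from 250 bases before to 50 after each RefSeq start site, were searched on both strands for 4 short motifs. CACGTG was found in 1 of their 16 windows, that of Rrn3, at -48 (in capitals above) and -215, against 7.15% of all 32851 windows and 10.3% of those of tested genes. The GC box GGGCGG was found in 11 of the 16 windows (7 genes), among them Polr1e at -46 and Polr1b at -42, against 62.9% of windows of tested genes. The ETS core CGGAAG was present in 5 of the 16 (Polr1c, Polr1e, Rrn3, Taf1b and Taf1c), against 31.1% of those windows, and CCAAT in 4 (Polr1a, Ubtf and both of Taf1c), against 37.7%. Ubtf alone has 6 of the 16 windows. GGGCGG and CGGAAG can share bases, and both were then counted. The 10 genes lie on 10 different chromosomes; Taf1d shares chromosome 9 with Ifrd2 and Taf1b chromosome 12 with Ifrd1.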

How the data were processed

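The authors deposited one log2 value per probe set and array, made, per the submitters' processing notes, with GCRMA 2.18.0; the settings of that step are unknown here, and the log2 scale was read from the values. Its background correction uses probe sequence, so low values say little. Of 45101 probe sets, 34958 are annotated to 1 gene, 932 to several and 9211 to none. Control probe sets (64) were dropped, and the probe sets that exceeded 4 on at least 3 arrays were fitted with limma 3.58.1 under R 4.3.3 (lmFit, then eBayes, no covariate). The contrast was double knockout minus wild type, tested on both sides, with Benjamini-Hochberg adjustment at 0.05, and the fit was tested on simulated data. No pair of arrays was a copy, since 62.5% or more of the tested values differed by over 0.1 in every pair of a group. For Ifrd2, Polr1a and Polr1e, whose values in a whole group were under 4, a bound with those values raised to 4 is given.

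Every member is described, as are Ifrd1, Ifrd2, the other RNA polymerase I genes and the subunits of all 3 enzymes. From each other list the rule allowed up to 4 passing genes, or the 2 with the smallest p, of which some are printed, and the 5 genes nearest to the mean profile. Members and lists were chosen with earlier results of these data known. Polr1f, Polr1g and Polr1h were matched through their older names; listed genes without a match were not analysed here. Gene lists were compared through each gene's probe set of highest mean value. Promoters and chromosomes are RefSeq's (GRCm38.p6). Alternatives covered filter, scaling, floor, prior, array weights, mouse number, RNA integrity, probe set choice and each mouse left out. Figures were drawn with matplotlib 3.10.9.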

Additional observations from a re-analysis of the deposited data

How the results depend on the processing

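Among the RNA polymerase I probe sets the number called was 0 without the filter, with a stricter filter (which leaves Polr1e out), with values under 4 raised to 4, with the mouse number as a replicate block and with the 3′ to 5′ value in the fit. It was 2 with an intensity trend and robust prior (Polr1e and Polr1d on 1448287_at) and 0 to 1 when 1 mouse was left out. Quantile normalization, median centring and array weights left it at 1. The block fit compares only mice 1 and 3 of each genotype. Double knockout mouse 2 and wild type mouse 4 have no partner of the same number. The median of the genes was 0.14 with the 3′ to 5′ value in the fit, 0.25 with the replicate block and 0.19 to 0.25 with 1 mouse left out. Genes of pre-rRNA processing called were 7 without the filter, 24 with the trend, 0 with the block or the 3′ to 5′ value, and 0 to 12 with 1 mouse left out. For dividing cells these numbers were 5, 15, 0 and 0 to 6, and 15 with the stricter filter; for the other RNA polymerase I genes they were 0 without the filter, 0 with the block or the 3′ to 5′ value, and 0 to 1. Over all probe sets, 458 higher and 347 lower calls became 265 and 207 without the filter, 710 and 506 with the stricter filter, 968 and 762 with the trend, 2 and 11 with the block, 5 and 12 with the 3′ to 5′ value, and 11 to 196 and 21 to 239 with 1 mouse left out.

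Changes near 0 turned sign under some settings, none of them called. With 1 mouse left out, Taf1c ran from -0.0044 to 0.31, Taf1d from -0.14 to 0.14 on 1430147_a_at, from -0.065 to 0.045 on 1452635_x_at and from -0.052 to 0.13 on 1452987_at. Array weights gave 0.040 on 1430147_a_at, the replicate block 0.082 on 1452635_x_at and the 3′ to 5′ value 0.059 on 1457292_at. Mice 1 and 3 of both genotypes share a number, which may only be a name. Their deviations from the group means correlated at 0.020 and 0.30. Pairs of different numbers ranged from -0.26 to 0.26, so these values settle no pairing. The causes of these shifts were not tested. The stricter filter uses fewer probe sets, and the replicate block and the fits without a mouse rest on fewer samples.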

Other observations

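The array also carries control probe sets for the 18S ribosomal RNA, a product of RNA polymerase I, which took no part in the tests above. The 5′ control read 13.46, 13.45 and 13.40 in double knockout mice, against 13.59, 13.54 and 13.57 in wild type mice, with every double knockout value below every wild type value (difference -0.13, two-sided exact permutation test, p = 0.1, the smallest these groups allow). The middle control differed by -0.20 with the groups apart (exact permutation p = 0.1), and the 3′ control by -0.31 with the groups overlapping (exact permutation p = 0.3). These are 3 comparisons of the same RNA at the top of the scale, and the labelling starts from poly(A) tails, which the mature ribosomal RNA lacks, so the values do not measure its amount.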
